A study of Rattus norvegicus with 12 samples.

Results

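Rat dorsal root ganglia, the clusters of sensory nerve cell bodies beside the spinal cord, were compared between animals given either of 2 chemotherapy drugs and animals given vehicle, and the genes that moved the same way with both drugs are described. The drug side held 8 libraries, 4 after paclitaxel at 2.0 mg/kg (dissolved in DMSO, then diluted with saline) and 4 after oxaliplatin at 2.4 mg/kg (in glucose solution). Both drugs were given into the peritoneal cavity to produce neuropathic pain. The control side held the 4 vehicle libraries, so all 12 of the 12 libraries of the study entered the comparison. The labels give 1 vehicle group and not its solvent, and a solvent that it lacked cannot be told apart from a drug. Strain, sex, age, number of injections, time and hour of collection, and ganglion level are not given in the sources used here. Nothing says that replicates came from separate animals, so the p-values measure the spread between these libraries, which may be technical.

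Paclitaxel stabilises microtubules, and oxaliplatin is a platinum compound that forms adducts with DNA. Sensory neurons no longer divide, but the ganglion also holds satellite glia, Schwann cells, fibroblasts, vessels and resident macrophages. DNA damage activates the transcription factor p53, whose best known target is Cdkn1a, and injury of a sensory axon induces a set of genes in its cell body that includes Ecel1, Atf3 and Gal. In bulk tissue, fewer cells of a type and less RNA per cell cannot be told apart.

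Library depth was even, at 17008728 to 17615736 estimated counts, and 15809 of 20152 listed genes had enough counts for a test. Levels are in CPM (estimated counts relative to the scaled library size), and differences are log2 fold changes ± standard error from the quasi-likelihood test of edgeR, with p-values adjusted over all genes tested (Benjamini-Hochberg). The pooled difference is the mean of the paclitaxel and the oxaliplatin difference, each drug with equal weight. Calls were made at an adjusted p under 0.05, and a gene counted as moving the same way when it also had the same sign and an unadjusted p under 0.05 with each drug. Both drug differences use the same 4 vehicle libraries, so they are not independent of each other. The 17 pan-neuronal markers were all present, with a summed level of 21810 to 24990 CPM in vehicle, 21740 to 31460 CPM after paclitaxel and 15300 to 20130 CPM after oxaliplatin.

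The change common to both drugs was small in number. In the pooled contrast 11 genes were called, 0.0696% of the genes tested, 9 higher (0.0569%) and 2 lower (0.0127%), and all 11 met the rule for both drugs. Of these, 10 are described here: 8 higher genes, Ecel1, Fam150b, Cdkn1a, Ephx1, Ccnb2, Nr1d1, Dbp and Ifrd1, and the 2 lower genes, Nap1l2 and Adgre1. With paclitaxel 19 genes (0.12%) were called, 13 higher (0.0822%) and 6 lower (0.038%). With oxaliplatin 278 (1.76%) were called, 166 higher (1.05%) and 112 lower (0.708%). Between the drugs 1788 genes (11.3%) were called, 1044 higher with oxaliplatin (6.6%) and 744 higher with paclitaxel (4.71%). Of the 10 genes described, 3 were called with paclitaxel on its own (Ecel1, Fam150b and Adgre1). With oxaliplatin on its own 9 were called, all except Adgre1, so that 2 were called with each drug (Ecel1 and Fam150b). The size of the change differed between the drugs for 9 of the 10 in the same test, with Adgre1 the exception; 7 moved further with oxaliplatin and 3 (Ecel1, Fam150b and Adgre1) with paclitaxel. DESeq2 called 177 genes. limma voom with quality weights, which weighs libraries unequally, called 94, and without these weights it called 9 higher and 2 lower. The number also depended on single libraries. Without the fourth vehicle library 2 genes were called (Ecel1 and Cdkn1a), without the first vehicle library 5, and without the fourth paclitaxel library 57. With the 8 drug libraries as 1 group, a fit in which the difference between the drugs enters the error, edgeR called 0 (adjusted p of the 11 genes from 0.333 to 0.528; 1397 genes with an unadjusted p under 0.05). The plot of counts by setting gives the number under each alternative.

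**Figure D1:**
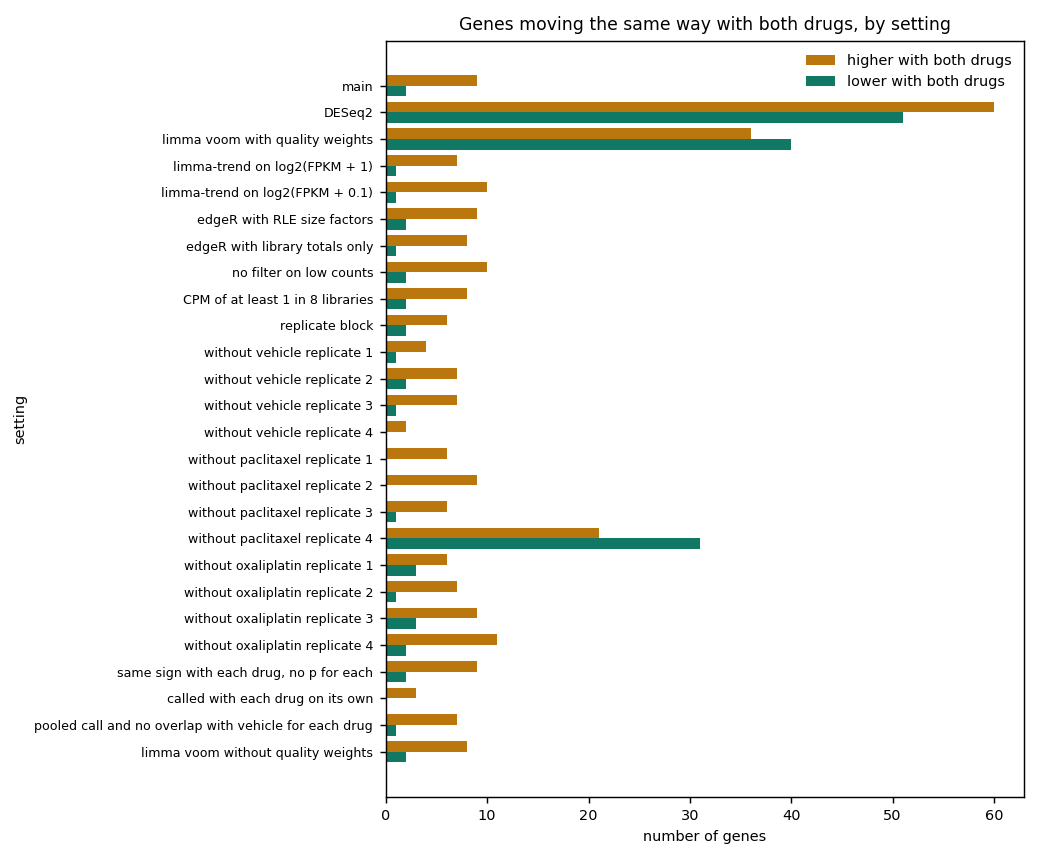
Number of genes moving the same way with both drugs (horizontal axis) under the reported setting (main) and each alternative that gives such a count, higher (upper bar) and lower (lower bar). The count is 9 and 2 as reported, 60 and 51 with DESeq2, 21 and 31 without the fourth paclitaxel library, and 2 and 0 without the fourth vehicle library.

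**Figure D2:**
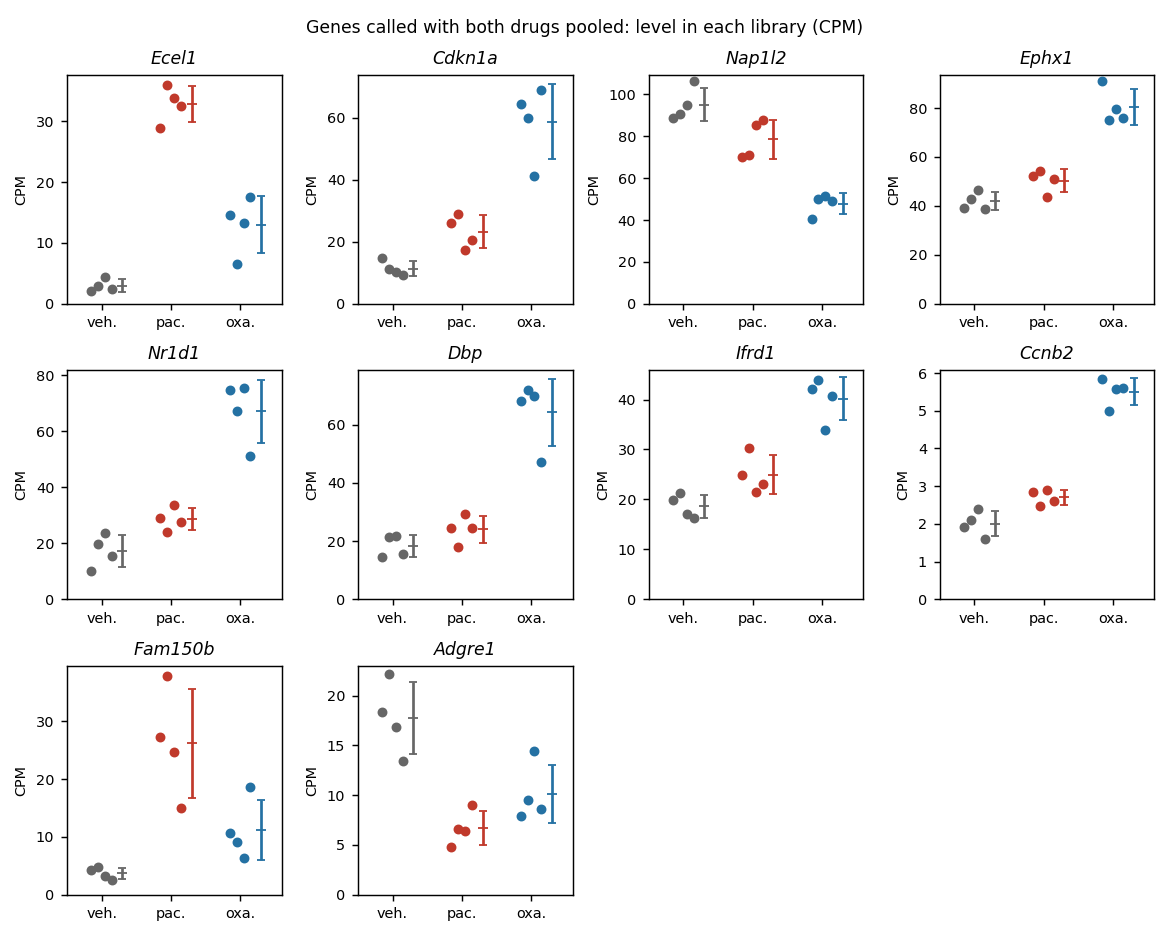
Level in CPM (vertical axis, starting at 0) of 10 genes called with both drugs pooled, one panel a gene, in the 4 vehicle (veh.), 4 paclitaxel (pac.) and 4 oxaliplatin (oxa.) libraries; points are libraries and bars the mean ± SD. Ecel1 and Fam150b are highest after paclitaxel, while Cdkn1a, Nr1d1, Dbp and Ccnb2 are highest after oxaliplatin and closer to vehicle after paclitaxel.

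Cdkn1a (gene ID 114851) encodes p21, an inhibitor of cyclin-dependent kinases and a target of p53. Its level was 14.7, 11.3, 10.1 and 9.30 CPM in the vehicle libraries, 26.1, 28.9, 17.2 and 20.6 CPM after paclitaxel, and 64.3, 60.03, 41.3 and 69.0 CPM after oxaliplatin. All 8 drug libraries lay above all 4 vehicle libraries, and the oxaliplatin libraries lay above the paclitaxel libraries. The pooled log2 fold change was 1.70 ± 0.18 (edgeR adjusted p = 0.00198), made up of a 2.04-fold higher level with paclitaxel (1.03 ± 0.20, adjusted p = 0.0848) and a 5.17-fold rise with oxaliplatin (2.37 ± 0.20, adjusted p = 0.000229). Oxaliplatin exceeded paclitaxel by 1.34 (95% interval 0.93 to 1.75, adjusted p = 0.00257). Cdkn1a kept its call in each of the 12 fits that left out a library. The related inhibitors Cdkn1b and Cdkn1c had pooled values of 0.06 and 0.25, and neither was called (adjusted p = 0.826 and 0.623, edgeR).

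Ephx1 (gene ID 25315), the microsomal epoxide hydrolase that detoxifies reactive epoxides, is also on lists of p53 targets. The vehicle libraries held 39.2, 42.8, 46.7 and 38.7 CPM, the paclitaxel libraries 52.2, 54.4, 43.8 and 50.9 CPM, and the oxaliplatin libraries 91.1, 75.3, 79.5 and 75.8 CPM. With paclitaxel 1 library fell inside the vehicle range, while with oxaliplatin the groups were far apart. Pooled, the change was 0.60 ± 0.08 (edgeR adjusted p = 0.0128), with 0.27 ± 0.09 with paclitaxel and 0.94 ± 0.09 with oxaliplatin. A fractional estimated count, the mark of reads divided between genes, was found in 10 of 12 libraries, and the call was lost without the first or the fourth vehicle library (adjusted p = 0.083 and 0.0743, edgeR).

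Over the list of p53 target genes, 22 of 31 tested members were higher and 9 lower in the pooled contrast, while over all genes 7901 of 15809 were higher. In that contrast 2 members were called higher (Cdkn1a and Ephx1; 0.0569% of all genes were). With paclitaxel 0 members were called, and with oxaliplatin 7 were called higher and 1 lower (1.05% and 0.708% of all genes). The median pooled log2 fold change was 0.157, against -3.51e-05 over all genes tested, with medians of 0.0931 for paclitaxel and 0.188 for oxaliplatin. Next by size were Gtse1, a p53-induced gene (1.09), Ckap2 (0.98) and Aen, a p53-induced nuclease (0.82), each with an adjusted p of 0.101 (edgeR). With paclitaxel and oxaliplatin Gtse1 had 0.71 and 1.47, and Aen 0.53 and 1.10. For Ckap2 the pooled value came from oxaliplatin (1.81), with 0.15 with paclitaxel, whose libraries overlapped vehicle. Gtse1 stood at 2.25, 2.57, 1.77 and 2.70 CPM in vehicle, 4.84, 4.17, 3.61 and 2.61 CPM after paclitaxel and 6.64, 5.97, 4.46 and 8.65 CPM after oxaliplatin. Of the drug libraries, only the fourth paclitaxel one lay inside the vehicle range. Mdm2, the ubiquitin ligase that degrades p53, had 0.16 (adjusted p = 0.411), and among the 9 lower members were Rrm2b (-0.33), Pmaip1 (-0.22) and Fas (-0.10), none called.

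For each library a list score was taken, the average log2 CPM over tested members relative to the vehicle average. For the p53 targets the score was -0.0214 to 0.0205 in vehicle, 0.073 to 0.178 after paclitaxel and 0.23 to 0.41 after oxaliplatin, so all 8 drug libraries lay above the vehicle range. With the 2 called members left out, a step added after the values were seen, the remaining 29 members gave -0.0135 to 0.0215, 0.0378 to 0.137 and 0.15 to 0.319. This second score was taken from log2(CPM + 0.1). The 29 still held Gtse1, Ckap2 and Aen, the next largest, so the step does not show a change spread over the list. Again no drug library entered the vehicle range.

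**Figure D3:**
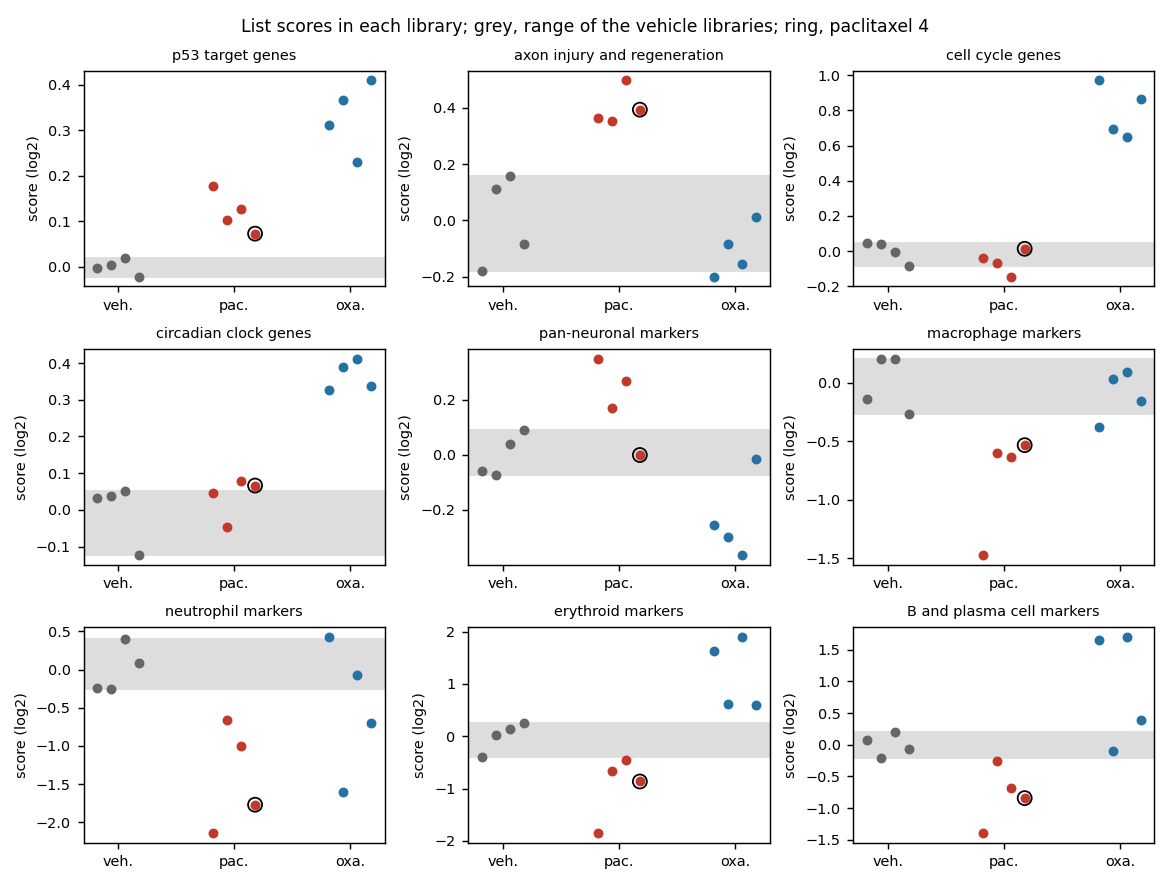
Score of 9 gene lists in each library (vertical axis, log2 units relative to the vehicle mean), with the vehicle range in grey and the fourth paclitaxel library ringed. For the p53 targets all 8 drug libraries lie above the grey band, whereas for the erythroid markers oxaliplatin lies above it and paclitaxel below.

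Ccnb2 (gene ID 363088) encodes cyclin B2, a cyclin of the entry into mitosis. It was low throughout, at 1.91, 2.10, 2.40 and 1.61 CPM in vehicle, 2.84, 2.46, 2.90 and 2.61 CPM after paclitaxel and 5.83, 5.00, 5.59 and 5.62 CPM after oxaliplatin. The groups did not overlap for either drug, but the lowest paclitaxel library was only just above the highest vehicle library. The pooled change was 0.94 ± 0.15 (edgeR adjusted p = 0.0261), 0.43 ± 0.17 with paclitaxel and 1.45 ± 0.16 with oxaliplatin. Its count was not whole in 7 libraries, and the call was lost in 7 of the 12 fits without a library (vehicle 1, 2 and 4, paclitaxel 1 and 3, oxaliplatin 1 and 2; adjusted p from 0.0501 to 0.164, edgeR).

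Of 40 tested members of the cell cycle list, 36 were higher and 4 lower in the pooled contrast, with a median of 0.355, but the median was -0.0675 with paclitaxel and 0.882 with oxaliplatin. Ccnb2 was the 1 member called in the pooled contrast (0.0569% of all genes were called higher). With oxaliplatin 20 were called higher (1.05% of all genes were) and with paclitaxel 0 (0.0822%). Mki67, a marker of dividing cells, had -0.27 with paclitaxel and 1.15 with oxaliplatin, and Top2a, the topoisomerase of mitotic chromosomes, had -0.31 and 1.27. Ccnb1, the closest relative of Ccnb2, had 0.05 and 0.46 and was not called with either drug. Markers of blood cells differed between the drugs as well. Erythroid scores were 0.588 to 1.9 after oxaliplatin, all above vehicle (-0.404 to 0.243), and -1.85 to -0.456 after paclitaxel, all below it. B and plasma cell markers had a median of 1.29 with oxaliplatin and -0.917 with paclitaxel. Their part in the cell cycle values was not tested.

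The promoters of Cdkn1a and Ccnb2 are shown because these are called members of the p53 target and cell cycle lists, and those of Nr1d1 and Dbp because they are the clock genes described next. The sequences are from RefSeq (assembly GRCr8), 5′ to 3′ on the strand of the gene, ending where the gene's annotated span begins; all 10 genes described had an entry. Capitals mark a p53 half-site in Cdkn1a and CCAAT boxes (on either strand) in Nr1d1, Dbp and Ccnb2. In Ccnb2 they also mark TTTGAA, the letters of the cell cycle homology region, here upstream of the CCAAT boxes.
Cdkn1a, chr20:7150682-7150819, plus strand: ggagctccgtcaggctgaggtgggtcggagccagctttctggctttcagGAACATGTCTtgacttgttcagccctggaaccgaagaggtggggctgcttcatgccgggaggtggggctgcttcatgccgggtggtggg
Ccnb2, chr8:79981718-79981908, minus strand: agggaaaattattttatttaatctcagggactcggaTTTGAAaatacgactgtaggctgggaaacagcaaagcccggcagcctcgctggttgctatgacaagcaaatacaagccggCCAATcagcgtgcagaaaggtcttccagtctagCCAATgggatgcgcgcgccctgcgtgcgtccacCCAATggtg
Nr1d1, chr10:84231813-84232062, minus strand: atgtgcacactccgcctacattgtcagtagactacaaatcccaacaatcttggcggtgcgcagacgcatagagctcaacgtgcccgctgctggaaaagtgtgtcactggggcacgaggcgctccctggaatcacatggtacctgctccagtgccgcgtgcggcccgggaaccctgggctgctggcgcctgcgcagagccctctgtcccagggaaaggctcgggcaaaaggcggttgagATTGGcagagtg
Dbp, chr1:105312006-105312255, plus strand: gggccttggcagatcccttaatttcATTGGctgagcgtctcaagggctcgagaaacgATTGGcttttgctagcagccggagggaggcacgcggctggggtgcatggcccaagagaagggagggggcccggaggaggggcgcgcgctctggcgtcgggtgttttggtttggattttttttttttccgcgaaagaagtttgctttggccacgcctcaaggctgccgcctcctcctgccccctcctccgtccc

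The 250 bases before the start in that table were searched on both strands for 8 motifs, and the share is given over the 27457 promoters of the table. CCAAT was found in 5 of the 10 genes (34.3% of all promoters), the p53 half-site in 2 of 10 (Cdkn1a and Adgre1; 6.5%), TTTGAA in 1 (Ccnb2; 16.1%) and the AP-1 site TGANTCA in 1 (Nap1l2; 6.3%). The E-box CACGTG (5.8%), the D-box TTATGTAA (0.8%), the ROR element core AGGTCA (13.6%) and the cAMP response element TGACGTCA (1.7%) were found in 0 of 10. Ccnb2 held 3 CCAAT boxes, the arrangement known from promoters of mitotic genes, and a second TTTGAA nearer the start that lies outside the printed stretch. A match is a description of the letters, and which motifs are capitalised was chosen after the search.

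Ecel1 (gene ID 60417) encodes a neuronal membrane protease known to be induced by nerve injury and showed the largest pooled change of the genes described. It was at 2.08, 2.98, 4.41 and 2.47 CPM in vehicle, 28.9, 36.0, 33.8 and 32.5 CPM after paclitaxel and 14.6, 6.55, 13.3 and 17.6 CPM after oxaliplatin. Every drug library was above every vehicle library, and every paclitaxel library above every oxaliplatin library. The pooled log2 fold change was 2.79 ± 0.26 (edgeR adjusted p = 0.000834), a 10.96-fold rise with paclitaxel (adjusted p = 0.000152) and a 4.35-fold rise with oxaliplatin (adjusted p = 0.00254). The change was smaller with oxaliplatin by 1.33 (-1.33, 95% interval -1.86 to -0.81, adjusted p = 0.00783). Its call held in each of the 12 fits without a library. The Ecel1 count was not whole in 6 libraries, the most that a gene not taken as uncertain can have. The related endothelin-converting enzymes Ece1 and Ece2 had pooled values of 0.11 and -0.07, neither called.

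Fam150b (gene ID 679566; Alkal2 in RefSeq), a secreted ligand of the receptor kinases ALK and LTK, followed the same order. Vehicle libraries held 4.22, 4.73, 3.26 and 2.53 CPM, paclitaxel libraries 27.3, 37.8, 24.6 and 14.98 CPM, and oxaliplatin libraries 10.7, 9.08, 6.33 and 18.5 CPM. No drug library fell into the vehicle range, but the highest oxaliplatin library exceeded the lowest paclitaxel library. The pooled change was 2.21 ± 0.33 (edgeR adjusted p = 0.0305), 7.10-fold with paclitaxel (adjusted p = 0.00753) and 3.03-fold with oxaliplatin (adjusted p = 0.0463). The call was lost in 8 of the 12 fits without a library (each vehicle library, paclitaxel 1 and 3, oxaliplatin 1 and 2; adjusted p from 0.0554 to 0.155, edgeR). The receptors were not called: Alk had 0.09 and Ltk, below 2 CPM on average in each group, 1.29 (adjusted p = 0.615 and 0.406).

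Of 31 tested members of the axon injury list, 20 were higher and 11 lower in the pooled contrast. In it 1 was called higher (Ecel1; 0.0569% of all genes were). With paclitaxel 3 members were called higher and 0 lower (0.0822% and 0.038% of all genes). With oxaliplatin 3 were called higher and 2 lower (1.05% and 0.708%). The median was 0.0827, with 0.253 for paclitaxel and -0.126 for oxaliplatin. Atf3, a stress-induced transcription factor, was at 8.21 to 12.6 CPM in vehicle, 19.1 to 27.0 CPM after paclitaxel and 8.88 to 12.8 CPM after oxaliplatin (pooled 0.68 ± 0.13, edgeR adjusted p = 0.101). Gal, the neuropeptide galanin, was at 5.26 to 10.1, 26.1 to 40.2 and 4.14 to 8.64 CPM in the same order (pooled 0.79 ± 0.20, adjusted p = 0.203). For both genes the oxaliplatin libraries overlapped the vehicle libraries.

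Of the 9 genes chosen for pain and injury, Cdkn1a was the 1 called in the pooled contrast (0.0569% of all genes were called higher). Calca, the precursor of the neuropeptide CGRP, had 0.26 (edgeR adjusted p = 0.355), the chemokine Ccl2 -0.40 (0.407), the sodium channel genes Scn9a -0.17 (0.514) and Scn10a 0.09 (0.725), and the sensory channels Trpa1 -0.06 (0.854) and Trpv1 -0.04 (0.885).

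Nr1d1 (gene ID 252917) encodes REV-ERB alpha, a repressor in the circadian clock. Its level was 10.2, 19.6, 23.5 and 15.3 CPM in vehicle, 29.0, 24.0, 33.6 and 27.6 CPM after paclitaxel and 74.6, 67.3, 75.5 and 51.2 CPM after oxaliplatin. The groups were separate for both drugs, by little for paclitaxel. In the pooled contrast the change was 1.35 ± 0.19 (edgeR adjusted p = 0.0155), 1.67-fold with paclitaxel and 3.92-fold with oxaliplatin, and oxaliplatin exceeded paclitaxel by 1.23 (95% interval 0.79 to 1.67, adjusted p = 0.00537). Its count was not whole in any of the 12 libraries, and it overlaps Thra on the opposite strand, whose reads cannot be told apart where strand was not kept. Without the fourth vehicle library its adjusted p was 0.0743.

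Dbp (gene ID 24309), a transcription factor whose level follows the clock, was at 14.7, 21.3, 21.8 and 15.4 CPM in vehicle, 24.4, 18.01, 29.2 and 24.4 CPM after paclitaxel and 68.1, 71.9, 69.9 and 47.2 CPM after oxaliplatin. After paclitaxel 1 library lay within the vehicle range, and after oxaliplatin none did. The pooled change was 1.10 ± 0.16 (edgeR adjusted p = 0.0155), with 0.39 ± 0.18 for paclitaxel, at an unadjusted p of 0.045, and 1.81 ± 0.18 for oxaliplatin. The difference between the drugs was 1.42 (95% interval 1.05 to 1.80, adjusted p = 0.000981). Without the first or the fourth vehicle library Dbp was not called (adjusted p = 0.0937 and 0.0743, edgeR).

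Of 22 clock genes tested, 15 were higher and 7 lower in the pooled contrast, 2 were called higher (Nr1d1 and Dbp; 0.0569% of all genes were), and the median was 0.121, with 0.013 for paclitaxel and 0.122 for oxaliplatin. With paclitaxel 0 clock genes were called, and with oxaliplatin 8 were called higher and 1 lower (1.05% and 0.708% of all genes). Clock scores were 0.327 to 0.412 after oxaliplatin, all above vehicle (-0.122 to 0.0515), and -0.0452 to 0.0794 after paclitaxel. Tef, a close relative of Dbp, had 0.36 ± 0.07 (edgeR adjusted p = 0.0693), and Arntl, the activator BMAL1 that Nr1d1 represses, had -0.52 ± 0.12 (adjusted p = 0.137). Per3 had -0.01 with paclitaxel and 1.03 with oxaliplatin, and Nr1d2 had 0.04 and 0.67. Per1 had -0.32 and -0.44 with a standard error too wide for a call (adjusted p = 0.661 pooled). The labels give no hour of collection for any group, and its part in these values was not tested.

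Ifrd1 (gene ID 29596), a transcriptional co-regulator induced in stressed and injured tissue, was at 19.9, 21.2, 17.1 and 16.3 CPM in vehicle, 24.9, 30.3, 21.5 and 23.1 CPM after paclitaxel and 42.0, 43.9, 34.0 and 40.7 CPM after oxaliplatin. Neither drug group overlapped vehicle, though the third paclitaxel library came close to it. Pooled, Ifrd1 rose by 0.77 ± 0.11 (edgeR adjusted p = 0.0155), 1.34-fold with paclitaxel and 2.16-fold with oxaliplatin. The call was lost without vehicle 1, 3 or 4 (adjusted p = 0.083, 0.0867 and 0.0745, edgeR). Its relative Ifrd2 had 0.05 with paclitaxel and 0.56 with oxaliplatin.

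Nap1l2 (gene ID 317247), a histone chaperone of neurons, was the gene with the smallest p among those that fell. It stood at 88.6, 90.8, 94.9 and 106 CPM in vehicle, 70.2, 70.9, 85.4 and 88.0 CPM after paclitaxel and 40.3, 50.3, 51.3 and 49.1 CPM after oxaliplatin. The fourth paclitaxel library was just below the lowest vehicle library, and the oxaliplatin libraries were far below. The pooled change was -0.64 ± 0.09 (edgeR adjusted p = 0.0128), -0.28 ± 0.10 with paclitaxel and -0.99 ± 0.10 with oxaliplatin, a difference between drugs of -0.72 (95% interval -0.94 to -0.50, adjusted p = 0.0025). The adjusted p was 0.0743 without the fourth vehicle library.

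Of its relatives, Nap1l5 had -0.19 with paclitaxel and -0.47 with oxaliplatin (pooled -0.33 ± 0.06, edgeR adjusted p = 0.101), and Nap1l3 had -0.02 and -0.35. Nap1l1 and Nap1l4, which are expressed in most cells, had pooled values of -0.01 and -0.02. Of the pan-neuronal markers, 10 of 17 were higher and 7 lower, with a median of 0.182 for paclitaxel and -0.171 for oxaliplatin. In the pooled contrast and with paclitaxel 0 of them were called, and with oxaliplatin 2 were called lower (0.708% of all genes were). The part of neuronal content in the Nap1l2 result was not tested.

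Adgre1 (gene ID 316137), the macrophage surface receptor F4/80, fell in the pooled contrast. It was at 18.4, 22.2, 16.9 and 13.4 CPM in vehicle, 4.84, 6.63, 6.45 and 9.003 CPM after paclitaxel and 7.91, 9.54, 14.4 and 8.60 CPM after oxaliplatin. The paclitaxel libraries were all below the vehicle range, and the third oxaliplatin library lay within it. The pooled change was -1.10 ± 0.18 (edgeR adjusted p = 0.0394), -1.39 ± 0.22 with paclitaxel (adjusted p = 0.0194) and -0.81 ± 0.21 with oxaliplatin (adjusted p = 0.0744). The difference between the drugs was 0.59 (95% interval 0.11 to 1.06) and was not called (adjusted p = 0.0981). This was the least stable call: it was lost in 10 of the 12 fits without a library, all except those without paclitaxel 4 or oxaliplatin 3 (adjusted p from 0.0699 to 0.192, edgeR), with library totals in place of scaled totals (0.0635), and with limma on log2(FPKM + 1) or log2(FPKM + 0.1) (0.0599 and 0.0636).

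Of 22 macrophage markers tested, 20 were lower and 2 higher in the pooled contrast, 1 was called (Adgre1; 0.0127% of all genes were called lower), and the median was -0.485, with -0.804 for paclitaxel and -0.171 for oxaliplatin. All 22 had counts in vehicle and in drug libraries, and their summed level was 488 to 780.5 CPM in vehicle, 205 to 432 CPM after paclitaxel and 505.5 to 627 CPM after oxaliplatin. The sums were below the vehicle range in all 4 paclitaxel libraries and within it in all 4 oxaliplatin libraries. Csf1r, the receptor on which macrophages depend, had -1.06 and -0.42 (pooled edgeR adjusted p = 0.108), Cd163 -1.11 and -0.72 (0.291) and Aif1 -0.99 and -0.46 (0.257). Spi1, the transcription factor PU.1, had -0.77 and 0.24, and the lysosomal protein Cd68 -0.76 and 0.48. The part of macrophage content in the Adgre1 result was not tested.

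**Figure D4:**
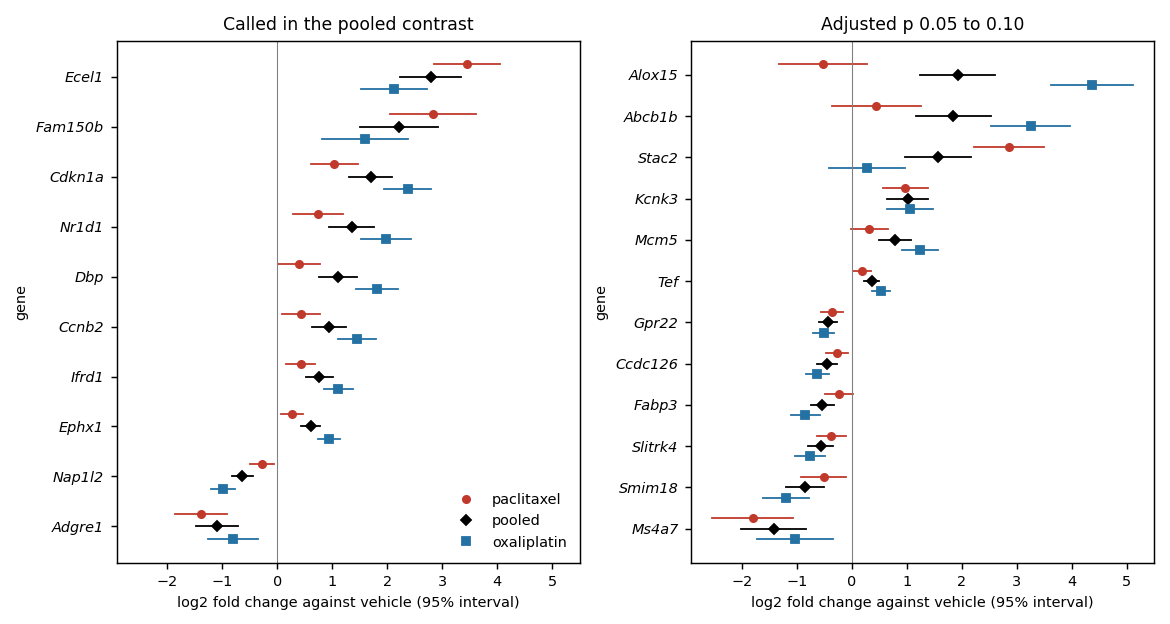
Log2 fold change against vehicle (horizontal axis, bars are 95% intervals) with paclitaxel (circles), oxaliplatin (squares) and both pooled (diamonds), for the 10 called genes described (left) and the 12 genes with an adjusted p between 0.05 and 0.10 (right). On the left both drugs lie on the same side of 0 for every gene; on the right Alox15, Abcb1b and Stac2 owe their pooled value to 1 drug.

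Just outside the threshold were 12 genes with adjusted p-values from 0.0572 to 0.0965, 6 higher and 6 lower, described without a test of their own. For 6 of them the libraries of each drug were clear of vehicle on the same side (of all genes, 0.557% were above and 0.443% below). A small pooled p from the same libraries favours such separation, so it is no separate result. Kcnk3, the potassium leak channel TASK-1, was at 8.38, 9.06, 10.4 and 9.36 CPM in vehicle, 17.5, 22.5, 19.2 and 13.9 CPM after paclitaxel and 17.9, 15.9, 15.1 and 28.2 CPM after oxaliplatin. All 8 drug libraries were above vehicle, and the 2 drug groups lay over each other. Its log2 fold change was 0.97 ± 0.19 with paclitaxel and 1.05 ± 0.19 with oxaliplatin (pooled 1.01 ± 0.17, edgeR adjusted p = 0.0572), a difference of 0.08 with a 95% interval of -0.33 to 0.48.

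Gpr22, an orphan receptor, went from 13.8 to 14.97 CPM in vehicle to 10.2 to 12.4 CPM after paclitaxel and 9.82 to 10.4 CPM after oxaliplatin (pooled -0.44 ± 0.08, edgeR adjusted p = 0.0572). The difference between the drugs was -0.15, with a 95% interval of -0.35 to 0.04. Ccdc126 (pooled -0.45), Smim18 (-0.86), the fatty acid-binding protein Fabp3 (-0.54) and Tef were also clear of vehicle with each drug. Slitrk4, a synaptic adhesion protein (-0.57), and Ms4a7, a macrophage gene (-1.42), were lower with both drugs but overlapped vehicle with 1 of them. The replication helicase subunit Mcm5 had 0.32 with paclitaxel and 1.24 with oxaliplatin. In the other 3, a single drug made the pooled value: Alox15, a lipoxygenase, had -0.52 with paclitaxel and 4.37 with oxaliplatin, the drug exporter Abcb1b 0.44 and 3.25, and Stac2, an adaptor of calcium channels, 2.85 and 0.27.

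Over all genes, 88 (0.557%) had all 4 libraries of each drug above all vehicle libraries and 70 (0.443%) had them below. With paclitaxel alone 6.96% and with oxaliplatin alone 11.3% of genes had no overlap with vehicle, and 1922 genes (12.2%) had an unadjusted pooled p under 0.05. Of the 10 called genes described, 7 had no overlap with vehicle for either drug, 6 above and 1 below. The exceptions were Ephx1 and Dbp with paclitaxel and Adgre1 with oxaliplatin. The calls come from the same libraries and favour such separation, so it adds no support to them. Per transcript length, the mean vehicle level of these 10 genes ranged from 0.943 FPKM for Ecel1 to 38.8 FPKM for Nap1l2.

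Several larger gene groups had most members lower but 0 called in the pooled contrast. Cytosolic ribosomal protein genes were lower in 66 of 74 cases, with medians of -0.239 for paclitaxel and -0.0123 for oxaliplatin. Nuclear genes of oxidative phosphorylation were lower in 52 of 64, with medians of -0.0543 and -0.173, and Ndufs1 and Cycs, a subunit of complex I and cytochrome c, had pooled values of -0.26 and -0.42. Heat shock and chaperone genes were lower in 23 of 30 (-0.0453 and -0.188), with Hsph1 at -0.33 and Dnaja1 at -0.37. Cholesterol synthesis genes were lower in 21 of 25 (-0.0264 and -0.265). None of these lists had a score outside the vehicle range in all 8 drug libraries.

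Lists of other immune and blood cells had larger medians that differed between the drugs. All 18 tested neutrophil markers were lower in the pooled contrast, with a median of -1.41 for paclitaxel and -0.333 for oxaliplatin and 0 called, and their summed level was 80.04 to 139.6 CPM in vehicle, 20.1 to 68.9 CPM after paclitaxel and 32.3 to 139.7 CPM after oxaliplatin. Genes of antigen presentation by MHC class II were lower in 10 of 12 (-0.444 and -0.33). Erythroid markers had medians of -0.907 and 1.34, and B and plasma cell markers -0.917 and 1.29, so that their pooled medians of 0.246 and 0.113 describe neither drug. Satellite glial markers were lower in 13 of 16 (-0.217 and -0.0978), and fibroblast markers had medians of -0.482 and 0.39.

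**Figure D5:**
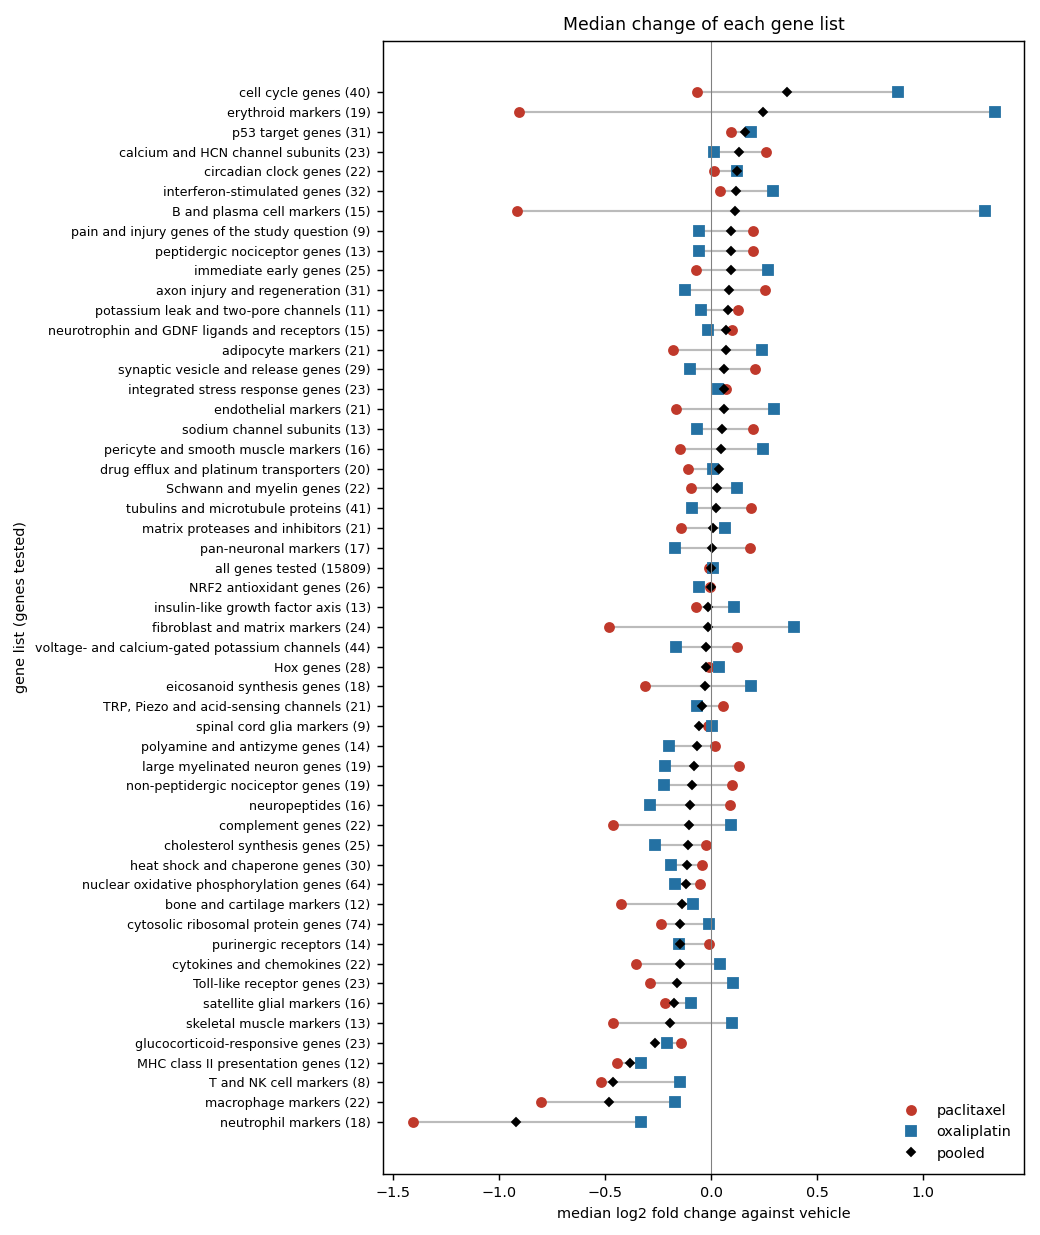
Median log2 fold change against vehicle (horizontal axis) of each gene list with paclitaxel (circles), oxaliplatin (squares) and both pooled (diamonds), ordered by the pooled median, with the number of genes tested in brackets. The p53 list has both drugs on the right of 0, the neutrophil, macrophage and MHC class II lists have both on the left, and the erythroid and B cell lists are split between the sides.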

How the data were processed

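Per the labels' protocols, RNA came from frozen ganglia by Trizol extraction and libraries were built with a BGISEQ kit; whether strand was kept is not said. The authors deposited, for each library, an expected count (estimated count) and an FPKM value per gene, per the file headers. CASAVA 1.4 and Bowtie2 are named in the submitters' processing notes, and for the quantifier and the genome build the entry is not given in the sources used here, nor is it for the annotation. The lowest deposited FPKM was 0.01, and a gene without an entry was set to 0. Depth was 17008728 to 17615736 estimated counts per library.

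Expected counts were rounded, filtered (filterByExpr), scaled by TMM and fitted in edgeR 4.0.16 with 3 group means over 12 libraries (9 residual degrees of freedom, robust quasi-likelihood, R 4.3.3). The pooled contrast gave each drug a weight of 0.5. The script was tested on simulated counts. Alternatives were DESeq2 1.42.0, limma 3.58.1 (voom with quality weights, added later without them, and trend on log2 FPKM), other scalings and filters, a replicate block, 1 drug group, other rules for moving the same way, and leaving out each library. Of the gene IDs, 92.0% matched a RefSeq table (assembly GRCr8), used for names and promoters only. Printed promoters stop at the gene's annotated span.

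The comparison, the gene lists and the rules were chosen with earlier results of these data known. Named genes are the genes moving the same way (up to 15 by smallest pooled p in each direction), 9 pain and injury genes, members of described lists by smallest p, and relatives of named genes; 1 called gene is not reported here. The 12 genes outside the threshold, further list members and those of the closing section were chosen after their values were seen. A gene is uncertain where more than 6 libraries had a fractional estimated count. Same-numbered libraries were checked for pairing: their deviations from the group means correlated at -0.232 to 0.157, so numbers were not taken to pair them. No 2 libraries of a group agreed within sampling noise (chi-square per gene 8.07 to 44.9).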

Additional observations from a re-analysis of the deposited data

Results flagged for a closer look

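Levels of 79 named genes were examined in each group of 4 libraries, and 13 of the 237 groups had 1 library far from the other 3 by Dixon's criterion (its gap to the nearest, over the range of the group); chance flags about 1 in 20. The total of 13 was close to that rate. Of the 13, the fourth paclitaxel and the fourth oxaliplatin library held 4 each. Chordc1, Etfa and Dnaja1 were picked from the fit without the fourth paclitaxel library, which favours genes in which that library stands apart. Its flags are therefore no separate sign that it differs.

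In paclitaxel 4, Slitrk4 was at 19.1 CPM (others 15.7 to 16.3), Chordc1 at 67.3 CPM (46.3 to 48.6), Etfa at 125 CPM (95.8 to 101) and Dnaja1 at 481 CPM (315 to 338), each the highest of its group. In oxaliplatin 4, Dbp was at 47.2 CPM (68.1 to 71.9) and Alox15 at 70.5 CPM (143 to 149), both lowest, while Pappa was at 27.0 CPM (10.5 to 13.3) and P2ry4 at 5.17 CPM (4.24 to 4.33), both highest. In paclitaxel 2, Spi1 was highest at 7.45 CPM (6.69 to 6.77). In oxaliplatin 3, Per3 was at 55.4 CPM (43.4 to 44.5) and Per2 at 23.7 CPM (21.9 to 22.2). In vehicle 2, Slitrk4 was lowest at 18.6 CPM (22.5 to 23.2) and Cycs highest at 277 CPM (222 to 231). Without oxaliplatin 4 Dbp was still called.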

How the results depend on the processing

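As reported, 9 genes were called higher and 2 lower in the pooled contrast, and the same 9 and 2 moved the same way with both drugs. The pooled counts, higher and lower, were 95 and 82 with DESeq2, 48 and 46 with limma voom with quality weights, 11 and 1 with limma on log2(FPKM + 1), 14 and 1 on log2(FPKM + 0.1), 9 and 1 with library totals only, and 0 and 0 with the drugs as 1 group of 8 libraries (edgeR; 1397 genes at an unadjusted p under 0.05, against 1922 as reported; no count for both drugs can be had). The same-way counts were 60 and 51, 36 and 40, 7 and 1, 10 and 1, and 8 and 1 for the first 5. All 11 genes were among those of DESeq2. The share of higher genes among the calls was 81.8% as reported, 53.7% with DESeq2, 51.1% with weighted voom and 90% with library totals. Counts were 3 and 0 when a call with each drug was required, and 7 and 1 when no overlap with vehicle was required. Among genes with a fractional estimated count in no more than 6 libraries, an alternative chosen after seeing the data, 5 and 2 were called. Voom without the weights, also added after seeing the data, gave 9 and 2 pooled (8 and 2 of them as reported) and 8 and 2 same-way genes. RLE size factors and other filters kept the counts within 1.5 times.

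Leaving out 1 library gave 2 to 25 higher and 0 to 32 lower pooled calls, and 2 to 21 higher and 0 to 31 lower same-way genes; the extremes were vehicle 4 and, upward, paclitaxel 4, and the same-way lower count was also 0 without paclitaxel 1 or 2. Only Ecel1 and Cdkn1a were called in all 12. With a replicate block, 6 higher and 2 lower were called, of which 6 and 1 were among the 11; Ephx1, Ccnb2, Fam150b and Adgre1 lost the call (adjusted p = 0.0686, 0.104, 0.111 and 0.111, edgeR). A library correlated best with its own number in 5 of 24 comparisons. Of the named genes, 5 uncalled ones changed sign: without 1 library Trpa1 ranged from -0.104 to 0.00698, Nap1l1 from -0.048 to 0.00718 (0.00705 without vehicle 4), Nap1l4 from -0.0487 to 0.00636 (0.00718 with weighted voom), Per1 from -0.647 to 0.0173 and Ece2 from -0.178 to 0.000119. The cause of these shifts was not tested. With 4 libraries a group, the paclitaxel changes of Cdkn1a, Nap1l2, Ephx1, Nr1d1, Dbp, Ifrd1 and Ccnb2 were not called on their own. Their adjusted p ran from 0.0848 for Cdkn1a to 0.283 for Dbp, with 0.23 for Ephx1 (edgeR). The paclitaxel change was 0.39 for Dbp and 0.27 for Ephx1.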

Other observations

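Without the fourth paclitaxel library, a choice made after its effect on the count was seen, 57 genes were called in the pooled contrast and 52 of them moved the same way with both drugs, 21 higher and 31 lower. Of the 10 called genes described in the report 9 were among them; Dbp was called but had no unadjusted p under 0.05 with paclitaxel. The change differed between the drugs by the test in 15 of the 52. It did not in the other 37, which does not show that it was equal. With all 12 libraries, 11.3% of all genes tested differed between the drugs.

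The genes named here were picked from the 52 after their values were seen. Among the added lower genes were the chaperone cofactors Chordc1 (-0.48 ± 0.06, edgeR adjusted p = 0.00941) and Dnaja1 (-0.45 ± 0.07, adjusted p = 0.0159) and the mitochondrial chaperonin Hspe1 (-0.48 ± 0.09). With all 12 libraries their adjusted p was 0.137, 0.248 and 0.258, and the fourth paclitaxel library had the highest Chordc1 and Dnaja1 level of its group. Dnaja1 and Hspe1 were the 2 members of the heat shock list of 30 that were lower by the rule in this fit. Of all 15950 genes tested in it, 31 were lower by the rule. Cytochrome c (Cycs) had -0.49, Etfa -0.33 and Etfdh -0.38, with adjusted p of 0.232, 0.232 and 0.183 over all 12 libraries (edgeR). Eif4a2, a translation initiation helicase, had -0.64, and the ribosomal protein paralog Rpl22l1 -0.81. Cd4, a co-receptor of T cells that rat macrophages also carry, had -0.87, and Arntl had -0.57. Added higher genes were Fbxo9, a subunit of a ubiquitin ligase (0.50 ± 0.06, adjusted p = 0.00598), Kcnk3 (1.07) and the p53-induced genes Gtse1 (1.16) and Aen (0.88). Fbxo9 was at 72.4 to 81.0 CPM in vehicle, 120, 125, 113 and 84.3 CPM after paclitaxel and 95.1 to 103 CPM after oxaliplatin. All 8 drug libraries of Fbxo9 were above vehicle, and the fourth paclitaxel library was the closest to it.

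Pappa, a protease of insulin-like growth factor binding proteins, was at 7.58 to 8.96 CPM in vehicle, 15.7 to 21.9 CPM after paclitaxel and 10.5 to 27.0 CPM after oxaliplatin, without overlap (pooled 1.05 ± 0.21, edgeR adjusted p = 0.105). Tsc22d3, a glucocorticoid-induced gene, had -0.20 with paclitaxel and -0.50 with oxaliplatin (pooled adjusted p = 0.105).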
